A study of Mus musculus with 12 samples.

Results

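The S100 genes encode small proteins that bind calcium through EF-hand loops. Of 53801 genes in the count table, 10 belong to this group here: S100a8, S100a9, S100a4, S100a6, S100a10, S100a11, S100a13, S100a14, S100a16 and S100g. They were picked by gene symbol. All 10 were in the colon table of normalized counts (32689 genes) and 9 in the blood table (25514 genes), which does not list S100g. Total RNA was sequenced from colon and whole blood of 6 male C57BL/6 mice aged 8 weeks, modelling ulcerative colitis (UC): dextran sulfate sodium (DSS), given in drinking water, injures the gut lining. By the study's protocol UC mice drank 1.5% DSS for 7 days, control mice drank water without it, and all were killed on day 8. The sample labels name mice 1, 2 and 4 UC and mice 7, 8 and 9 control. The 12 libraries make 4 labelled groups of 3: UC colon, control colon, UC blood and control blood. The study selected these 6 mice by their disease activity index, so they are not a random sample of treated and untreated animals. Ribosomal RNA was removed from the colon RNA, and ribosomal and globin RNA from the blood RNA.

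S100a8 and S100a9 pair to form calprotectin, an abundant protein of the neutrophil cytoplasm that is measured in stool as a sign of gut inflammation. Other family members serve epithelial and structural roles. S100g (calbindin-D9k) carries calcium through the cytoplasm of intestinal absorptive cells, S100a10 and S100a11 bind annexins at membranes, S100a4 and S100a6 act in cell movement and cytoskeleton turnover, S100a13 takes part in the release of proteins that lack a signal peptide, and S100a14 and S100a16 are typical of epithelia.

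Colon libraries had total counts of 69181049 to 103662306 and blood libraries of 80867247 to 142536804. Counting error is thus small except for near-empty members and for single libraries with few counts, both named below. The heat maps published for these data mark mice 1, 7 and 9 as DSS and mice 2, 4 and 8 as control in both tissues, which differs from the sample label for 4 of the 6 mice (2, 4, 7 and 9). Which mice drank DSS is therefore not settled here. Groups follow the sample labels, each label log2FC holds for the labels alone, no test was made on the other division, and values are given for each mouse. The tissue is entered under separate headings in the labels, with contradictory entries in all 12 samples, and the entry that matches the sample titles was used. Epithelial markers (Epcam, Krt8, Krt18, Krt20, Cdh1 and Vil1) summed to between 540500 and 855430 normalized counts in the libraries taken as colon and to between 72.7 and 184 in those taken as blood, where 5 of the 6 were listed. Red cell markers (4 found of 5) summed to at least 3932800 in each blood library and to at most 4005 in each colon library.

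On chromosome 3 of GRCm38 lie 9 of the genes, and S100g lies on chromosome X (162961992 to 162964599). Along chromosome 3 the order is S100a13 (90514435 to 90524581), S100a14 (90526856 to 90528837), S100a16 (90537254 to 90543151), S100a4 (90603771 to 90606045), S100a6 (90612882 to 90624181), S100a8 (90668978 to 90670035) and S100a9 (90692632 to 90695721). S100a11 (93520488 to 93526287) and S100a10 (93555080 to 93564643) follow after a gap of 2824766 bases. S100a9 and S100g are on the minus strand and the other members on the plus strand. S100a8 and S100a9 are separated by 22596 bases. Exons of S100a4 share 302 bases with the annotated gene Gm42674, which had 0 counts in all 12 libraries. S100g lies within the span of Ctps2 on the opposite strand, and their exons share no base.

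RefSeq promoter windows (GRCm38.p6, 250 bases before to 50 bases after the annotated start) were found for 8 of the 10 genes. The windows of 4 genes are shown, because S100a8 and S100a9 varied together over the libraries, S100a11 varied with them, and S100g did not. Capitals mark each match to 5 motifs that were searched on both strands: C/EBP (TTGCNNAA), NF-kB (GGGANTTCC), AP-1 (TGANTCA), STAT (TTCNNNGAA) and the TATA box (TATAAA). Windows are at chr3:90668821-90669120 on the plus strand for S100a8, chr3:90695672-90695971 on the minus strand for S100a9, chr3:93520246-93520545 on the plus strand for S100a11 and chrX:162964550-162964849 on the minus strand for S100g.
S100a8: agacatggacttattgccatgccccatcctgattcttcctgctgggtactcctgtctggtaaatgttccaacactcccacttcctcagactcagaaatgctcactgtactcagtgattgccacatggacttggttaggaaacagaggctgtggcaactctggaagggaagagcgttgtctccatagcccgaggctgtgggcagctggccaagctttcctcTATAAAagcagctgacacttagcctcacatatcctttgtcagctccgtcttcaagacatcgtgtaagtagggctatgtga
S100a9: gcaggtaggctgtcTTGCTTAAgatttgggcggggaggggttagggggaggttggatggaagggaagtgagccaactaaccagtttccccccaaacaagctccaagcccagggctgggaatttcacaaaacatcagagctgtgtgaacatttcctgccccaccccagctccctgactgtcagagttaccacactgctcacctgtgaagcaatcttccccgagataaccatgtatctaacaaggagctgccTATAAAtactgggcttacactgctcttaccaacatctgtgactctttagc
S100a11: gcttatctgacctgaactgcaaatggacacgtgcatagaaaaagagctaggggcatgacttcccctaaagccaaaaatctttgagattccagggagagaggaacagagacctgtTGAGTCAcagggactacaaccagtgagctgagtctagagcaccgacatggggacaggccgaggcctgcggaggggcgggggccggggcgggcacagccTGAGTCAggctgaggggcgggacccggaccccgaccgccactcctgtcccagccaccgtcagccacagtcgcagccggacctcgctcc
S100g: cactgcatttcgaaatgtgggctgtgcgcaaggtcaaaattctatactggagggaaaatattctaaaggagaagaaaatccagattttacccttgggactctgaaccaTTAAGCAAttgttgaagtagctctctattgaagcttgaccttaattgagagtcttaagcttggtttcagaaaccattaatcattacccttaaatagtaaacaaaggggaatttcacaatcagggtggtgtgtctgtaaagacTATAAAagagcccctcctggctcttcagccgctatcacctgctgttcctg
Positions give the first letter of a match, with the annotated start at 0. The S100a8 window held 1 match, a TATA box at position -30. In S100a9 a TATA box begins at the annotated start itself, and a C/EBP match, TTGCTTAA, lies at position -236. S100g held the same C/EBP letters on the other strand, TTAAGCAA, at position -142, and a TATA box at the start. S100a11 held no TATA box and no C/EBP match, but had the AP-1 letters TGAGTCA at positions -136 and -38. Of the genes not shown, S100a4 had a TATA box at position -31, 1 of 2 windows of S100a16 had an AP-1 match, and the windows of S100a6 and S100a13 held none of the 5 motifs. No member window had an NF-kB or STAT match. Among 32544 different promoter windows, 10.8% held the C/EBP letters, 13.6% the TATA box, 7.79% AP-1, 8.33% STAT and 1.69% NF-kB. A match is a stretch of letters and not a measured binding site.

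The first question was whether the S100 genes differed between mice labelled UC and mice labelled control. In neither tissue did a member pass the test. The study, by contrast, listed S100a8 and S100a9 among genes raised in both tissues of its UC mice. It used both as positive controls of inflammation in its PCR, and called many more genes in each tissue at the thresholds below. The result here holds for the sample labels alone and does not show an absent response to DSS. In the colon, edgeR's quasi-likelihood test called 0 of the 10 members at an adjusted p-value (padj) of at most 0.05 with an absolute log2FC over 1, against 1 of all 22238 genes tested (0.0045%). In the blood, 8 members passed the filter on low counts and 0 were called, against 0 of 16759 genes (0%). An unadjusted p under 0.05 was reached by 313 colon and 241 blood genes, none of them a member. DESeq2 called 6 genes for each tissue, limma-voom called 0 for each, and neither tool called a member.

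The log2FC of the label in the colon ran from -1.88 ± 2.29 (SE) for S100a9 to 0.44 ± 1.26 for S100g, with 8 of 10 members below 0 and a median of -0.29, beside a median of -0.01 over all genes. The next lowest were -1.49 ± 2.24 for S100a8 and -1.19 ± 0.67 for S100a11, and the other 6 members lay between -0.32 and 0.08. The padj was 0.9999 for every member in the colon and 0.9998 for every member tested in the blood. Blood log2FC ran from -0.37 ± 0.98 for S100a8 to 0.80 ± 1.50 for S100a16, with a median of -0.12. The ranges of the labelled groups overlapped for each of the 10 members in both tissues. For S100g in blood this is empty, since every library had 0 counts. The share over all genes was not counted, so nothing is read from the 10. The SE of S100a8 and S100a9 in the colon exceeds 2 on the log2 scale, with high and low libraries under both labels.

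**Figure D1:**
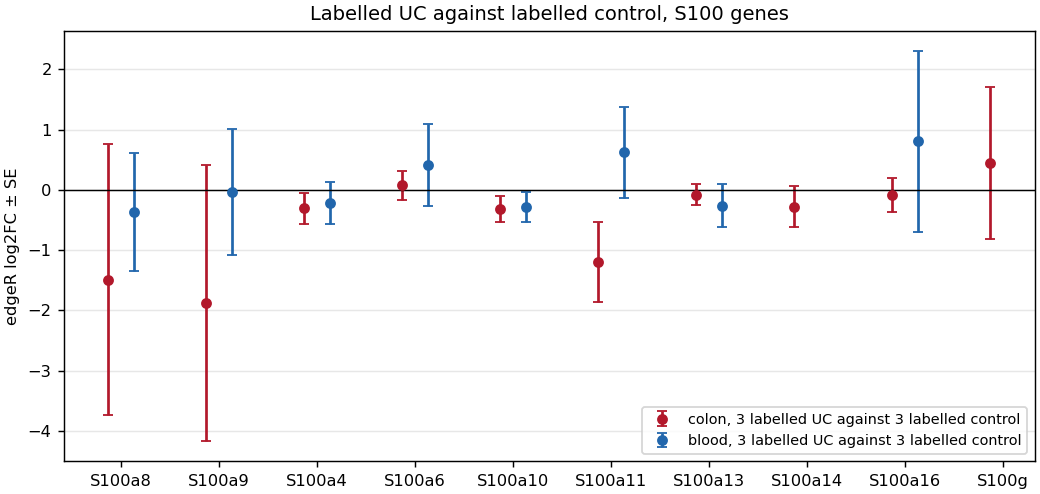
Log2FC (vertical axis) of the 3 libraries labelled UC against the 3 labelled control for each S100 gene, in colon and blood, with bars of 1 SE from edgeR; S100a14 and S100g did not pass the count filter in blood and have no blood point. All points lie within about 2 SE of 0, and the bars are longest for S100a8 and S100a9 in the colon (SE 2.24 and 2.29).

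Libraries of the same label differed widely in calprotectin. In the colon, S100a8 had normalized counts (the deposited count divided by 1 factor per library) of 5370, 33.1 and 22.3 (mice 1, 2 and 4) and 1888, 75.6 and 13337 (mice 7, 8 and 9). S100a9 had 5434, 16.5 and 31.3 in mice 1, 2 and 4, and 2137, 130 and 18061 in mice 7, 8 and 9. Mouse 9, labelled control, was highest for both genes, followed by mouse 1, labelled UC, and mouse 7, labelled control. Each label thus held libraries with at least 1888 and libraries with at most 130 normalized counts of either gene.

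The highest colon library exceeded the lowest 1092-fold for S100a9 and 599-fold for S100a8. The lowest libraries held 19 counts of S100a9 (mouse 2) and 27 of S100a8 (mouse 4), so the counting error of these folds is not small. Over the 15842 colon genes with a mean of at least 100 normalized counts, the median of this fold, computed on normalized count + 1, was 1.87, and 99.7% and 99.4% of them had a smaller range than S100a9 and S100a8. The other members of the colon were steadier. S100g varied 153-fold and S100a11 6.54-fold, while the remaining 6 varied between 1.29-fold (S100a13) and 2.55-fold (S100a14).

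In the blood, S100a8 had 88578, 14299 and 11466 normalized counts in mice 1, 2 and 4, and 37179, 8642 and 101913 in mice 7, 8 and 9. S100a9 had 257975, 24397 and 26030 in mice 1, 2 and 4, and 92503, 21538 and 201512 in mice 7, 8 and 9. The mice with the 3 highest values were 1, 7 and 9 for both genes, the same numbers as in the colon, but the spread was narrower, 11.8-fold for S100a8 and 11.98-fold for S100a9. The median over 11105 blood genes was 1.91-fold.

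**Figure D2:**
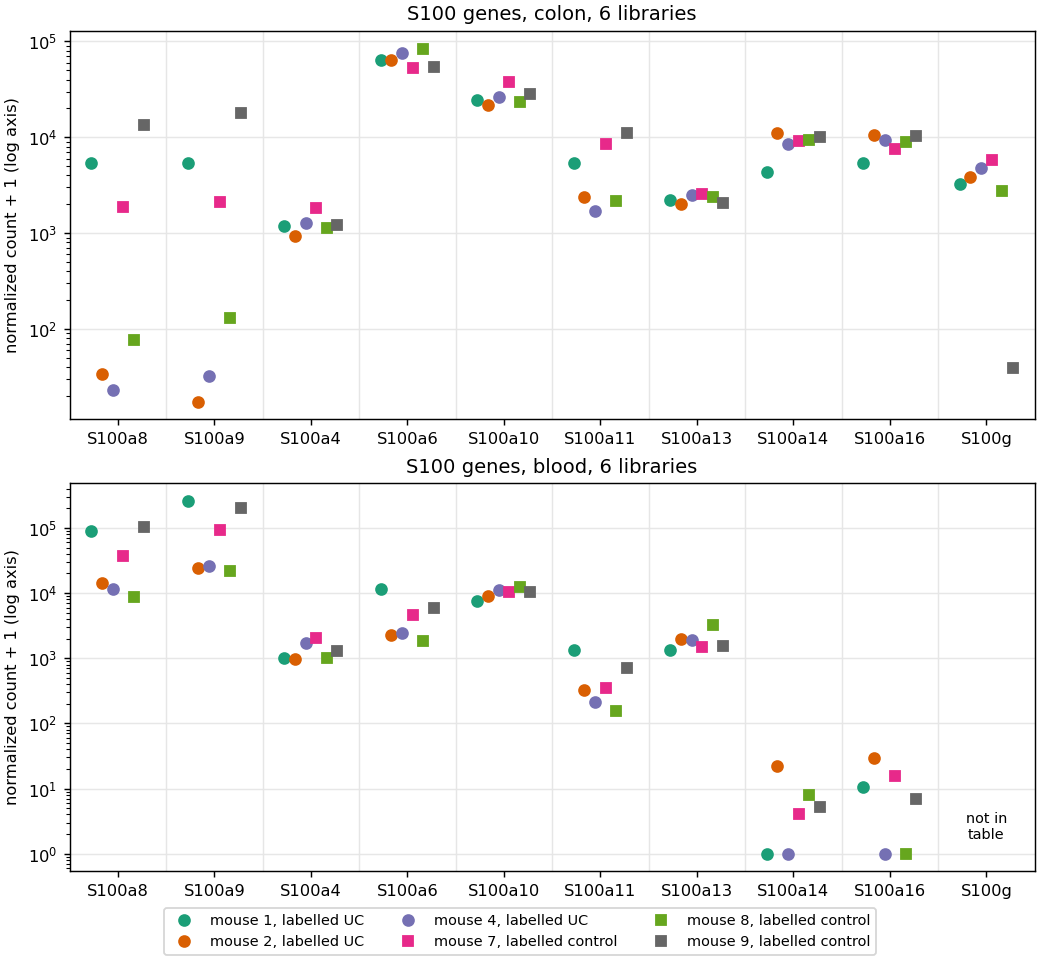
Normalized counts plus 1 (log axis) of the 10 S100 genes in each of the 6 colon libraries (top) and 6 blood libraries (bottom); each colour is 1 mouse, circles are labelled UC and squares labelled control, and S100g is not in the blood table. S100a8 spreads 599-fold and S100a9 1092-fold in the colon, S100a6 1.58-fold and S100a10 1.73-fold, and S100g stands apart in mouse 9 at 37.8.

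Markers of neutrophils, the main source of calprotectin in blood, moved with these values. In the blood the 10 markers summed to between 10840 and 150820 normalized counts, in the order of mice 1, 9, 7, 2, 4 and 8, and the ranges of the labelled groups overlapped. In the colon the same 10 markers summed to between 7605 and 49129, but Ly6g alone gave 7350 to 25479 of this and stayed high in every library. The receptor Cxcr2, another of the 10 markers, had colon values of 190, 5.23 and 0 (mice 1, 2 and 4) and 268, 0 and 1058 (mice 7, 8 and 9). The granule collagenase Mmp8 was listed at 0 in mice 2 and 8 and reached 1964 in mouse 9. Monocyte and macrophage markers (8 genes) summed to between 9004 and 30854 in the colon and were highest in mice 9, 7 and 1. In the blood their order was 1, 7, 4, 9, 2 and 8, unlike that of calprotectin. The colon pattern was not particular to myeloid cells: sums of T cell, fibroblast and squamous epithelium markers were also highest in mice 1, 7 and 9. The sum of B cell markers in the colon was lowest in mouse 1. Against the label, 9 of 10 neutrophil markers could be tested in the colon, 0 were called, and their median log2FC was -2.69. In blood 10 were tested, 0 were called, and the median was 1.33. The part of these cells in the S100 values was not tested, and in bulk RNA fewer cells of a type cannot be told apart from less RNA per cell.

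S100a11 and S100a6 followed calprotectin to a smaller extent, S100a11 in both tissues and S100a6 in the blood. S100a11 had 5447, 2397 and 1683 normalized counts in the colon of mice 1, 2 and 4, and 8508, 2189 and 11008 in mice 7, 8 and 9. Its blood values were 1337, 321 and 210 in mice 1, 2 and 4, and 352, 154 and 707 in mice 7, 8 and 9. Mice 1, 7 and 9 held the 3 highest values in both tissues. S100a6 had blood values of 11699, 2280 and 2449 (mice 1, 2 and 4) and 4643, 1864 and 5863 (mice 7, 8 and 9), again highest in mice 1, 9 and 7. Its colon values did not follow calprotectin, with 63864, 64330 and 75354 in mice 1, 2 and 4 and 52777, 83583 and 54281 in mice 7, 8 and 9. Mice 8, 4 and 2 were highest, but mice 2 and 1 were nearly equal. The range of 1.58-fold was below that of the median colon gene (1.87-fold), so no opposite pattern is read from it. Whether the colon and blood patterns of S100a6 differ was tested only for the label, without a call.

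Epithelial S100a14 and S100a16 varied by 2.55-fold and 1.98-fold over the same colon libraries. S100a16 had 5361, 10626 and 9468 normalized counts in mice 1, 2 and 4, and 7553, 8917 and 10195 in mice 7, 8 and 9. S100a14 had 4313, 10979 and 8522 in mice 1, 2 and 4, and 9162, 9321 and 10110 in mice 7, 8 and 9. Both were lowest in mouse 1, and the remaining 5 libraries of S100a14 lay between 8522 and 10979. Their ratio within a library, S100a14 over S100a16 in counts, stayed between 0.805 and 1.21. Mouse 9, with the most calprotectin, had the second highest value of both genes. The epithelial markers summed to 610510 normalized counts in mouse 1, which lay within the range of the other libraries.

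S100g was set apart by a single animal. Its colon values were 3252, 3836 and 4811 in mice 1, 2 and 4, and 5796, 2772 and 37.8 in mice 7, 8 and 9. Without mouse 9 the range was 1.06 on the log2 scale, against 7.26 with it. Mouse 9 also had the lowest sum of absorptive colonocyte markers (6 genes), 153470 normalized counts against 302940 to 910160 in the other libraries. Of these 6 only Car1 was lowest in mouse 9, at 60215 against 149800 to 740810 elsewhere. Slc26a3 and Aqp8 were lowest in mouse 1, Car4 in mouse 7, and Guca2a and Slc9a3 in mouse 2. The sum of smooth muscle markers (5 genes) was lowest in mouse 9 as well, 119660 against 209450 to 478990. Small intestine markers (5 genes) summed to 13595 in mouse 1 and 21836 in mouse 7 and to between 517 and 901 in the other libraries. Fabp2 alone gave 12105 and 21076 of these 2 sums. Sis had 1279 and 346.5 there, and Fabp6 had 190 and 400 against 123 to 180 elsewhere. Lct was highest in mouse 8 and Apoa4 in mouse 2. The part of these tissue differences in the S100g values was not tested. Trpv6, the channel through which calcium enters the absorptive cell, did not share the pattern of S100g: it had 15.2, 4323 and 6268 in mice 1, 2 and 4, and 104.96, 5027 and 220 in mice 7, 8 and 9. The calcium pump Atp2b1 had its lowest value, 18847, in mouse 9, and ran from 26428 to 54533 elsewhere. Vdr, the vitamin D receptor, had its lowest values in mice 9 (8629) and 7 (14067).

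S100a4, S100a10 and S100a13 varied by at most 2.40-fold in either tissue. S100a4 had 1189, 944 and 1282 normalized counts in the colon of mice 1, 2 and 4 and 1840, 1119 and 1221 in mice 7, 8 and 9. In blood it had 1002, 987 and 1736 in mice 1, 2 and 4 and 2041, 1003 and 1270 in mice 7, 8 and 9. Mouse 7 was highest in both tissues, and the blood order (7, 4, 9, 8, 1, 2) is unlike that of calprotectin. S100a10 ranged over 21881 to 37857 for the colon, highest in mouse 7, and over 7478 to 12545 for the blood. S100a13 ran from 1994 to 2577 in the colon, the narrowest range of the 10 genes there. In the blood both S100a10 and S100a13 were highest in mouse 8 and lowest in mouse 1, with S100a13 at 3246 and 1355.

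Calprotectin as a share of all counts of the 10 genes brings these patterns into 1 value per library. In the blood S100a8 and S100a9 made up 93.8%, 72.8% and 68.2% of these counts (mice 1, 2 and 4) and 87.3%, 61.6% and 93.8% (mice 7, 8 and 9). In the colon they made up 8.95%, 0.0424% and 0.0412% in mice 1, 2 and 4, and 3.09%, 0.153% and 21.1% in mice 7, 8 and 9. S100a6 was the largest colon member by counts, with 36.5% to 62.4%. Set against the epithelial genes of the same library, the calprotectin counts were 0.836, 0.00195 and 0.00235 times the sum of S100a14, S100a16 and S100g in mice 1, 2 and 4, and 0.179, 0.00978 and 1.54 times in mice 7, 8 and 9. In mouse 9 the calprotectin counts thus exceeded those of the 3 epithelial genes together, but these counts are not divided by gene length. As CPM per kilobase of exon, calprotectin exceeded the 3 genes together in mouse 1 as well. There S100a8 had 42.9 and S100a9 57.7, against 13.8 for S100a14, 18.4 for S100a16 and 37.5 for S100g.

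**Figure D3:**
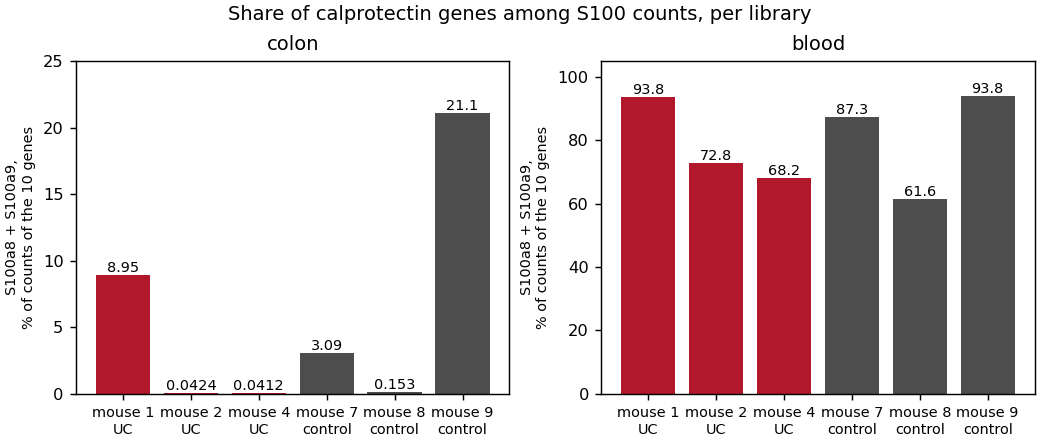
Counts of S100a8 plus S100a9 as a percent of the counts of all 10 S100 genes (vertical axis, from 0, with different scales for colon and blood) in each library, coloured by sample label. Colon shares run from 0.0412% to 21.1% and blood shares from 61.6% to 93.8%, and mice 1, 7 and 9 have the 3 highest bars in both tissues.

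Within the calprotectin pair, S100a9 had more counts than S100a8 in every blood library. S100a8 over S100a9 in counts was 0.343, 0.586 and 0.440 in mice 1, 2 and 4, and 0.402, 0.401 and 0.506 in mice 7, 8 and 9. In the colon it was 0.988, 2 and 0.711 in mice 1, 2 and 4, and 0.883, 0.583 and 0.738 in mice 7, 8 and 9. The ratio of 2 in mouse 2 rests on 38 counts of S100a8 and 19 of S100a9. Within the same mouse the colon ratio exceeded the blood ratio in 6 of 6 mice, which is a description with no test.

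The second question was how the S100 genes are divided between colon and blood. Called higher in the colon were 5 members (S100g, S100a14, S100a16, S100a6 and S100a11), and called higher in the blood were 4 (S100a9, S100a8, S100a4 and S100a13). S100a10 was not called. Over all 23258 genes tested, 37.7% were called higher in the colon and 20.8% higher in the blood. S100g, S100a14 and S100a16 passed the count filter through their colon libraries and had to differ, so nothing is read from the count of 5. The median log2FC of all genes was 0.46 with TMM normalization and 2.57 when libraries were scaled by their totals alone. Genes outside the table of normalized counts held 39.1% to 67.9% of the counts of a blood library and 8.63% to 18.7% of a colon library. Values are therefore also given relative to the median.

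For S100a8, mean TMM-scaled CPM (counts scaled to a common library total) were 19.2 ± 29.2 (SD, n = 6) for colon and 797 ± 755 for blood, a log2FC of -5.55 ± 1.62 (SE, padj = 0.00979, edgeR), or -6.01 relative to the median gene. S100a9 had 23.9 ± 39.1 against 1899 ± 1873, a log2FC of -6.60 ± 1.74 (padj = 0.00545), or -7.06 relative to the median. Within single mice the difference on the log2(CPM + 0.5) scale ran from -8.54 to -4.64 for S100a8 and from -9.51 to -5.18 for S100a9, lower in the colon in 6 of 6 mice and least so in mouse 9. With the mouse as a replicate block the paired log2FC were -7.54 for S100a8 and -8.56 for S100a9, lower than without it, and both calls held. Without mouse 1 the unpaired log2FC were -7.77 and -8.70.

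The 3 epithelial members were close to absent from the blood. S100g had 0 counts in all 6 blood libraries. Where 3 counts per library are taken as the floor, its colon level was at least 4.65-fold higher in mouse 9 and at least 252-fold to at least 769-fold higher in the other 5 mice. S100a14 had between 0 and 14 counts in a blood library and 29 in all, against 4554 to 12607 in a colon library. S100a16 had 0 to 19 counts in a blood library and 54 in all, against 5660 to 12202. In the 4 mice with blood counts above 0, the colon exceeded the blood 161-fold to 912-fold for S100a14 and 115-fold to 538-fold for S100a16. Their fitted log2FC were 9.01 ± 0.78 and 8.17 ± 0.80, and the value of S100a14 was 12.19 without mouse 2. These floors cover counting error only.

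S100a6 had a mean of 364 ± 65.1 CPM (SD, n = 6) in the colon and 87.5 ± 68.4 in the blood (log2FC 2.07 ± 0.45, padj = 0.00155), and its ranges did not overlap. S100a11 had 29.0 ± 21.6 and 9.35 ± 8.20 (log2FC 1.54 ± 0.59, padj = 0.0354), its ranges overlapped, and the call was lost without mouse 2, 4, 7 or 9 (padj of 0.0513 to 0.111). S100a4 had 7.04 ± 1.81 in the colon and 24.4 ± 8.61 in the blood (log2FC -1.80 ± 0.25, padj = 6.659e-05). S100a13 had 12.7 ± 1.46 and 34.6 ± 12.1 (log2FC -1.44 ± 0.21, padj = 1.022e-04). S100a10 had 151 ± 34.5 and 184 ± 31.8 (log2FC -0.29 ± 0.16, padj = 0.133), with overlapping ranges. When libraries were scaled by totals alone, S100a4 (0.28), S100a13 (0.73) and S100a10 (1.83) turned positive, which left 2 members called higher in the blood and made 6 higher in the colon, S100a10 included (padj = 2.167e-05). Relative to the median gene of each scaling they did not turn, and stood at -2.26, -1.90 and -0.75 with TMM and at -2.29, -1.84 and -0.74 with totals alone.

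Neighbours on chromosome 3 could differ sharply. Along the 7 genes from S100a13 to S100a9 the log2FC, colon minus blood, went from -1.44 to 9.01, 8.17, -1.80, 2.07, -5.55 and -6.60. S100a13 and S100a14, which lie 2274 bases apart, stood on opposite sides, as did S100a4 and S100a6, which lie 6836 bases apart. S100a14 and S100a16 were alike and adjacent, and so were S100a8 and S100a9.

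**Figure D4:**
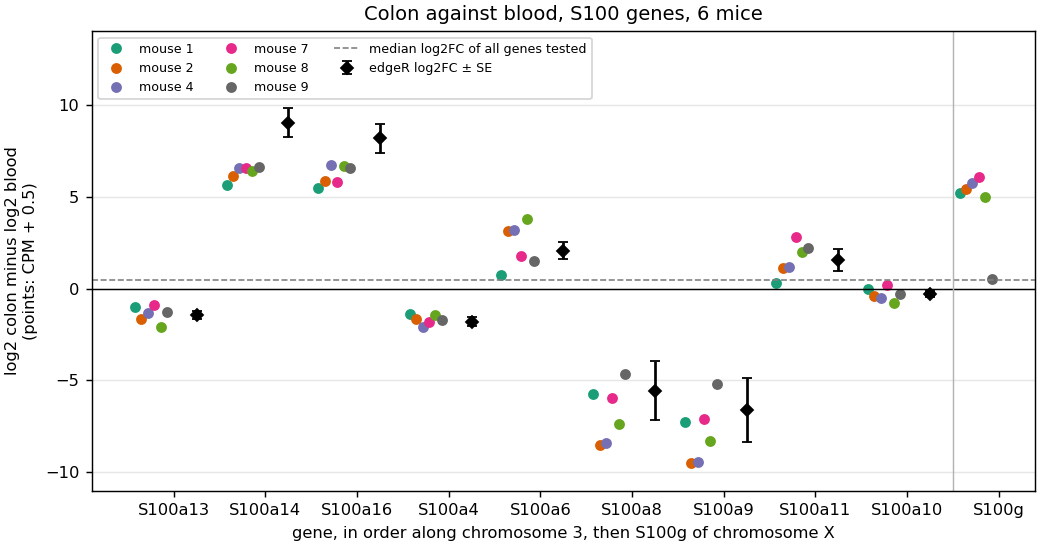
Difference colon minus blood on the log2 scale (vertical axis) for each S100 gene in chromosome order; coloured points are the 6 mice, computed on CPM + 0.5, which shrinks the difference of genes near 0 in blood, and black diamonds are the edgeR log2FC with bars of 1 SE (none drawn for S100g, at 0 in blood). The points of S100a8 lie at or below -4.64 and those of S100a9 at or below -5.18, the points of S100a16 lie at or above 5.49, and the dashed line marks the median gene at 0.46.

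The next comparison asked whether the label acted differently in the colon and the blood, as an interaction in the fit of all 12 libraries. Of 10 members, 0 were called at padj of at most 0.05, against 1 of 23258 genes (0.0043%). At an unadjusted p under 0.05 there were 793 genes and 0 members, DESeq2 called 19 genes and limma-voom 1, and the fit with the replicate block called 0. The interaction log2FC of the members other than S100g ran from -1.86 ± 2.75 (S100a9) to 0.17 ± 0.41 (S100a13), and the value for S100g cannot be interpreted because it had no count in blood.

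Levels were compared between genes only as CPM per kilobase of exon. In the colon S100a6 led with a median of 258 (220 to 342 over the 6 libraries), above the whole range of S100a10, at 115 (98.4 to 178). Behind these the ranges of neighbours in the order overlapped throughout: S100a11 at 42.3, S100g at 40.6, S100a16 at 31.4, S100a14 at 30.2, S100a13 at 17.8, S100a9 at 12.4, S100a4 at 11.4 and S100a8 at 8.06. In the blood S100a9 led with 2110 (736 to 9038) and S100a8 followed with 683 (222 to 2665), and the ranges of both overlapped. S100a8 lay above the whole range of S100a10 (158, from 113 to 185). S100a6 (48.0), S100a13 (43.5), S100a4 (35.4) and S100a11 (11.98) followed with overlapping ranges, and S100a16 (0.0861) and S100a14 (0.0383) lay below all of these. Dividing by the median transcript length, an alternative chosen after seeing the data, moved S100a16 (63.4) and S100a14 (52.9) above S100a11 in the colon and kept the first and second places in both tissues. With that length the blood ranges of S100a8 (from 313) and S100a10 (up to 366) overlapped.

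Calprotectin signals through the receptors Tlr4, with its partner Ly96 and Cd14, and Ager, and further S100 receptors have been proposed among surface proteins. Of 9 receptor genes, 0 were called for the label in either tissue, 0 were called higher in the colon and 2 higher in the blood: Cd33 (log2FC -4.90 ± 0.77) and Cd36 (-5.63 ± 0.29). The shares over all genes, here and for the lists that follow, were 37.7% higher in the colon and 20.8% higher in the blood, and nothing particular to a list is read from its count. Their median log2FC, colon minus blood, was 0.25, beside 0.46 for all genes. Tlr4 had 2416, 881 and 738 normalized counts in the blood of mice 1, 2 and 4 and 989, 570 and 2671 in mice 7, 8 and 9. Cd14 had 2548, 151 and 265 in mice 1, 2 and 4 and 521, 136 and 750 in mice 7, 8 and 9. Cd33 had 13291, 1443 and 1539 in mice 1, 2 and 4 and 3682, 1557 and 9734 in mice 7, 8 and 9. All 3 were highest in mice 1, 9 and 7, as calprotectin was. Ager stayed low, with 25.6 to 103 normalized counts for colon and 11.5 to 59.0 for blood.

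Annexins and scaffolds are the membrane partners of S100a10, S100a11 and S100a4. They were listed together with the plasminogen gene Plg and the activator gene Plat, and 10 of these 11 genes could be tested between tissues. Higher in the colon were 6 of them, including Anxa2, the partner of S100a10 (1.42 ± 0.43), Anxa4 (4.93 ± 0.19) and the giant scaffold Ahnak (2.66 ± 0.19), and 1 was higher in the blood, Anxa6 (-1.64 ± 0.22), beside 37.7% and 20.8% of all genes. Plat, among the 6, had at most 4.96 normalized counts in any blood library and had to differ. In the blood Anxa1, the partner of S100a11, had 17043, 1802 and 1800 normalized counts in mice 1, 2 and 4 and 4411, 1625 and 9068 in mice 7, 8 and 9. Anxa2 had 19861, 4272 and 3943 in mice 1, 2 and 4 and 8069, 3639 and 11312 in mice 7, 8 and 9, while S100a10 itself was lowest in mouse 1. For the label, 0 of 10 were called in the colon and 0 of 9 in the blood. Plat, the plasminogen activator that is active near surface S100a10, had 18763, 550 and 725 in the colon of mice 1, 2 and 4 and 8115, 509 and 6211 in mice 7, 8 and 9.

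Other binding partners (7 genes) gave 3 calls higher in the colon, Ppp5c (1.89 ± 0.18), Fgf1 (8.51 ± 0.75) and Nucb1 (2.13 ± 0.30), and none higher in the blood, beside 37.7% and 20.8% of all genes. Fgf1 had at most 9.03 normalized counts in any blood library and had to differ. Il1a, whose protein leaves the cell in a complex with S100a13, had colon values of 704, 12.2 and 12.4 (mice 1, 2 and 4) and 126, 0 and 2125 (mice 7, 8 and 9), while S100a13 varied 1.29-fold over the same libraries. Among 11 transcription factors of myeloid and epithelial cells, 6 were called higher in the colon (Cebpa, Klf4, Klf5, Vdr, Cdx2 and Hnf4a) and 2 higher in the blood, Cebpb (-1.62 ± 0.46) and Spi1 (-3.32 ± 0.59), beside 37.7% and 20.8% of all genes. Cdx2 had 0 counts in the blood, Vdr at most 4.96 and Hnf4a at most 22.6 normalized counts there, so these 3 had to differ. In the colon Cebpb had 816, 483 and 297 in mice 1, 2 and 4 and 1927, 580 and 2341 in mice 7, 8 and 9. For the label 0 of these factors were called in either tissue, and the same held for the other binding partners and for the calcium transport genes. Of 6 calcium transport genes 4 were called higher in the colon (Trpv6, Atp2b1, Slc8a1 and Calb2) and 1 higher in the blood, Trpv5, with 10.5 to 53.8 normalized counts in blood and 0 counts in the colon. Trpv6 and Calb2 had 0 counts in each blood library, so that these 2 and Trpv5 passed the filter through 1 tissue alone and had to differ.

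Genes whose profile over the 6 libraries lay nearest to a member were found by the root mean square (RMS) difference of log2(normalized count + 1), centred per gene, among genes with a mean of at least 100. For colon S100a9 they were Ccl4 (RMS 0.32), Fpr1 (0.40), Cxcl3 (0.52), S100a8 (0.55) and Gm37347 (0.59), of which Ccl4 and Cxcl3 are chemokines and Fpr1 is a receptor for bacterial formyl peptides. For colon S100a8 they were Ccl4 (0.44), S100a9 (0.55), the haptoglobin gene Hp (0.59), the scavenger receptor gene Marco (0.60) and Fpr1 (0.60). Fpr1 had 209, 0 and 0 in mice 1, 2 and 4 and 101, 7.56 and 580 in mice 7, 8 and 9. In the blood the nearest to S100a9 were Dhrs9 (0.20), Il1rap (0.20), Gm5483 (0.22), Dmxl2 (0.23) and Gm43181 (0.23), and those of S100a8 were Gm5483 (0.25), S100a9 (0.25), Tlr5 (0.26), Gm43181 (0.28) and Bmx (0.31). S100a9 was thus among the 5 nearest to S100a8 in blood, but S100a8 was not among the 5 nearest to S100a9.

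For colon S100g the nearest genes were Slc30a10 (0.61), Otc (0.61), Cldn14 (0.70), Ces1e (0.81) and Retnla (0.97), each of which was lowest in mouse 9. Slc30a10, a manganese exporter, had 6918, 2700 and 3811 in mice 1, 2 and 4 and 4654, 1601 and 27.0 in mice 7, 8 and 9. For colon S100a14 they were Ptges3l (0.08), Atxn1l (0.12), Sall1 (0.13), Zfp566 (0.13) and Fam131a (0.14), each lowest in mouse 1. Among genes with a mean of at least 1000, S100a16 was second nearest to S100a14 (0.18). For blood S100a4 they were Arhgef37 (0.08), Ms4a6c (0.11), Ptpro (0.12), Gpr18 (0.12) and Sowahc (0.13). With 6 libraries many genes can share a profile, and the likeness is a description.

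**Figure D5:**
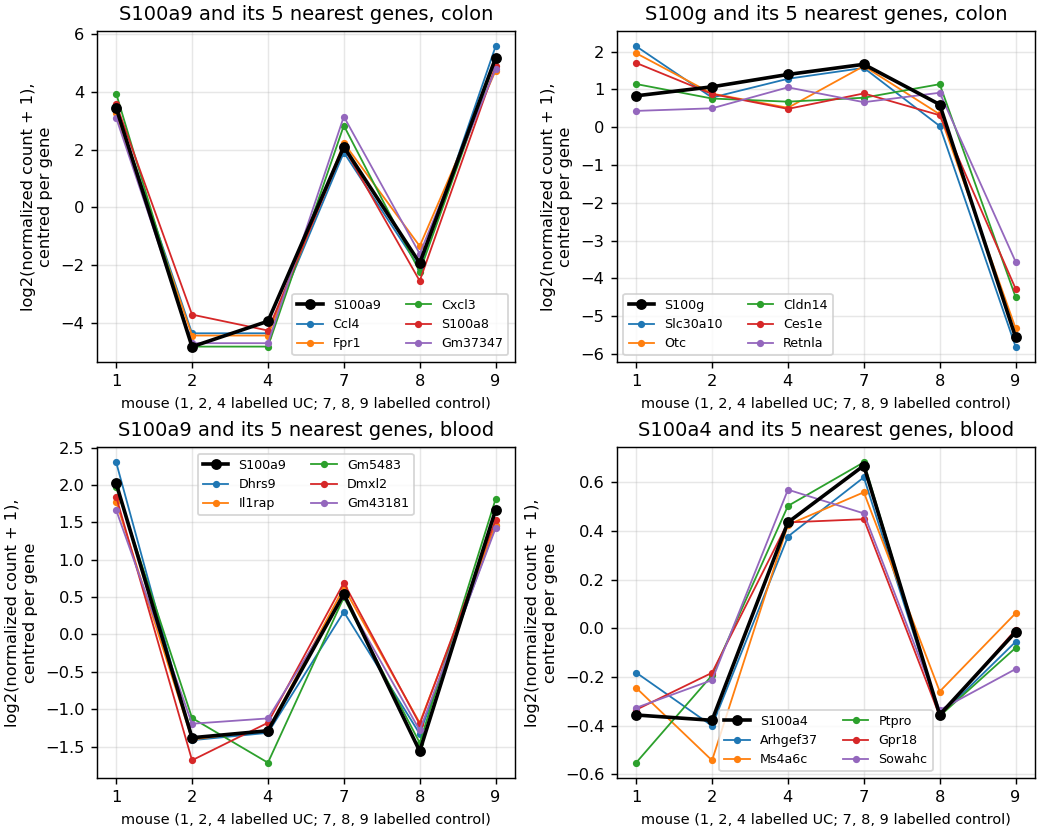
Log2(normalized count + 1), centred per gene (vertical axis), over the 6 mice (horizontal axis) for S100a9 and S100g in the colon and S100a9 and S100a4 in the blood (black), each with its 5 nearest genes (colours); lines join the values of a gene and imply no order of mice. S100a9 and its neighbours peak in mice 1, 7 and 9 in both tissues, S100g and its neighbours drop in mouse 9, and S100a4 is highest in mice 4 and 7.

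Of 9 further genes with an S100 name that were searched, 8 were found and 5 had enough counts to be tested between tissues. Among the 5 is S100pbp, which is named for binding an S100 protein and is not itself an S100 gene. It was not called (-0.85 ± 0.18). S100b, a glial protein, was called higher in the colon (78.1 to 207 normalized counts, against 0 in 5 blood libraries and 9.48 in mouse 1), and so was S100z (6.10 to 27.2, against 0 counts in each blood library). Both passed the filter through the colon and had to differ. S100a1 had 4870 to 7418 normalized counts in colon libraries and 2346 to 4635 in blood libraries. Each tissue was scaled apart, so these values do not give the direction between tissues. In the fit of all 12 libraries its log2FC, colon minus blood, was -0.76 ± 0.18 (padj = 0.00243, edgeR). It was not called, since this lies within 1. S100a2, S100a3 and S100a5 had at most 20.8 normalized counts in any library. Of 7 fused-type S100 genes of the skin barrier, 2 were tested and Crnn was called higher in the colon, at 8.71 to 57.6 normalized counts, but it had 0 counts in each blood library and had to differ. In neither tissue was any of these genes called for the label.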

How the data were processed

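Total RNA was sequenced from colon and blood of the same 6 mice (12 libraries, 3 in each of 4 groups). Per the labels and the study's methods, the authors quantified genes with StringTie 1.3.4c and deposited estimated counts per gene, all whole numbers, in 1 table. They also deposited tables of normalized signal per tissue, each count divided by 1 factor per library, and these were not compared between tissues. Whether counting used strand is not given in the sources used here. Groups follow the sample labels. The members and gene lists were chosen with earlier results of these data known. Named genes are the 10 members, the listed partners and relatives, and the 5 nearest profiles.

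Counts were fitted in R 4.3.3 with edgeR 4.0.16 (TMM, filterByExpr with a minimum count of 10, quasi-likelihood test, Benjamini-Hochberg over all genes tested), each tissue alone for the label and all 12 libraries for tissue and interaction. A gene was called when its adjusted p did not exceed 0.05 and its log2FC lay beyond 1 in either direction (interaction: adjusted p alone). DESeq2 1.42.0, limma-voom (limma 3.58.1), other scalings and filters, the replicate block and leaving out each mouse were alternatives. Fits were tested on simulated data. Same-numbered libraries come from the same mouse: over 15196 genes the deviations of the 6 pairs correlated at 0.01 to 0.20, with 3 pairs over 0.1. Only 2 of the 6 colon libraries were closest to the blood library of their own number, so the pairing rests on the study's account and not on this check. Exon lengths were taken from GENCODE and promoters from RefSeq. Floors of 3 counts cover counting error only. Cell-type markers were summed over normalized counts.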

Additional observations from a re-analysis of the deposited data

Results flagged for a closer look

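In groups of 6 libraries, on the log2(normalized count + 1) scale, the gap of the lowest or highest library to its nearest neighbour was divided by the range of the group and held against a critical value of 0.625. Of 19 groups tried, 2 passed it, and chance flags about 1 in 20. On that scale the gap over the range was 0.729 for S100a14 and 0.853 for S100g. S100a14 in the colon was lowest in mouse 1, with 4313 normalized counts, while the other 5 libraries had 8522 to 10979. S100g in the colon was lowest in mouse 9, with 37.8 normalized counts (42 counts), while the other 5 had 2772 to 5796.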

How the results depend on the processing

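The number of members called for the label stayed at 0 in both tissues, and for the interaction, under all alternatives, and when each mouse was left out in turn (0 to 0). Higher in the colon were 4 to 5 members without 1 mouse and higher in the blood 4 to 4. Scaling by library totals alone gave 2 members higher in the blood in place of 4, since S100a4 (0.28) and S100a13 (0.73) turned positive, and 6 higher in the colon in place of 5, since S100a10 (1.83) turned positive and was called. With the mouse as a replicate block, 5 members were higher in the colon and 4 in the blood, as without it, and the pairing turned the interaction of S100a6 to 0.055. A fit of tissue alone, chosen after seeing the data, also gave 5 and 4. The median log2 ratio of S100a8 over S100a9 in blood was -1.25 from counts and -1.66 per kilobase of exon. Nearest genes depended on the minimum level: at a mean of at least 1000, between 1 and 4 of the 5 were kept.

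Directions of the label changed with single mice and settings. In the blood, library totals alone turned S100a6 (-0.20) and S100a11 (-0.039), and limma-voom turned S100a16 (-0.38). For the interaction, totals alone turned S100a4 (0.25), S100a6 (0.32) and S100a10 (0.23), and limma-voom turned S100a14 (1.28). Leaving out 1 mouse moved the colon label log2FC of S100a8 between -7.51 and 0.84, S100a9 between -8.13 and 0.65, S100a6 between -0.038 and 0.34, S100a13 between -0.17 and 0.0058, S100a14 between -0.59 and 0.021, S100a16 between -0.28 and 0.17 and S100g between -0.14 and 1.47. In the blood the ranges were -1.92 to 0.73 for S100a8, -2.04 to 0.85 for S100a9, -0.53 to 0.13 for S100a4, -0.79 to 0.78 for S100a6, -0.60 to 1.29 for S100a11, -0.46 to 0.23 for S100a13 and -0.58 to 2.003 for S100a16. For the interaction they were -5.59 to 0.13 for S100a8, -0.27 to 0.14 for S100a4, -0.78 to 0.93 for S100a6, -0.27 to 0.20 for S100a10, -0.25 to 0.44 for S100a13, -1.40 to 5.71 for S100a14 and -2.02 to 0.43 for S100a16. The interaction range of S100g (-0.16 to 1.47) cannot be interpreted, since it had no count in blood. The causes were not tested. S100g has no tissue or interaction value among the genes of both normalized tables. Depth limits the blood values of S100a14, S100a16 and S100g, and the colon calprotectin ratios of mice 2 and 4.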
